A study of Mus musculus with 4 samples.

Results

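The Hox genes are the homeobox transcription factor genes of the HoxA, HoxB, HoxC and HoxD clusters. They were taken here as every gene of the count table whose symbol is Hox followed by the cluster letter a, b, c or d and a paralogue number. This gave 43 of the 24909 rows, of which 39 are protein-coding genes and 4 are antisense RNAs named after a Hox gene (Hoxa11os, Hoxb3os, Hoxb5os and Hoxd3os1). RNA was sequenced from ASZ001 cells, a mouse basal cell carcinoma (BCC) line, in 2 groups of 2 libraries. The control cells carried an empty doxycycline-inducible vector and the c-FOS cells carried a doxycycline-inducible vector with c-FOS, a subunit of the AP-1 transcription factor. Cells of both groups received doxycycline, so the comparison is between vectors under the same drug. Time and dose of doxycycline are not given in the labels, nor whether the 2 libraries of a group are separate cultures, and p-values therefore measure only the spread between these libraries, which may be technical.

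Hox genes lie side by side in each cluster, numbered from 1 at the end that is active in the head and neck region of the embryo to 13 at the end that is active towards the tail and in the outer limb. Genes with the same number in different clusters are paralogues, copies of the same ancestral gene, and often act in overlapping ways. Adult cells, skin cells among them, keep a Hox pattern that reflects the body site they came from, and this pattern is what is called positional identity. Hox proteins bind DNA together with TALE homeodomain cofactors of the PBX and MEIS families, and retinoic acid, Trithorax proteins and CTCF are known regulators of the clusters.

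The deposited counts summed to between 28405433 and 32465409 per library. Levels are given as CPM, the count of a gene over the scaled total of its library, and levels of different genes are compared only as CPM per kb of gene model length. Fos, the gene the vector carries, was at 0.403 and 0.351 CPM in the control libraries and at 297 and 313 CPM in the c-FOS libraries, which follows the labels. The contrast moved much of the transcriptome: edgeR's quasi-likelihood test (Benjamini-Hochberg adjusted, threshold 0.05) called 67.1% of 12791 genes, 33.8% higher and 33.3% lower with c-FOS. Of the 8 keratinocyte markers listed, 6 fell, 1 rose and 1 did not pass. Their summed level was 25010 and 24980 CPM in control and 11870 and 12400 CPM in c-FOS libraries. The 8 fibroblast markers summed to 5.40 and 5.65 CPM in control and 17.7 and 19.1 CPM in c-FOS libraries, with 3 risen, 1 not passed and 4 below the filter on low counts, and Thy1 was at 0 in every library. The 3 that rose were Pdgfrb, from 0 counts in both control libraries to 75.5 and 82.0 counts, Col1a2 (6.36-fold) and Pdgfra (2.74-fold). The 7 macrophage and leukocyte markers summed to 18.9 and 17.0 CPM against 41.5 and 45 CPM with 3 risen: Csf1r, from 11.5 and 7.0 counts to 511.5 and 571.5 counts, Cd14 (1.60-fold) and Cd68 (1.30-fold). Ptprc, Adgre1 and Itgam had at most 2.5 counts in any library. The 5 endothelial markers summed to 113 CPM in each control library and to 216 and 212 CPM in the c-FOS libraries, with Flt1 (3.60-fold), Tek (2.56-fold) and Pecam1 (1.24-fold) risen and Kdr at 0 in every library. Of the 5 melanocyte markers, the 2 tested did not pass, and Tyr and Mlana were at 0. The part of these shifts in the Hox results was not tested, and in these bulk libraries fewer cells of a type and less RNA per cell cannot be told apart.

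ASZ001 cells expressed a broad set of Hox genes, from the head end of the clusters to the tail end. Of the 43 members, 28 passed the filter on low counts and were tested, 15 were below it, and 6 of those 15 had no count in any library. Hoxb9, a gene with roles in the thoracic skeleton and the mammary gland, had the highest level of all members per kb: 49.7 and 48.6 CPM per kb in the control libraries and 48.1 and 48.2 CPM per kb in the c-FOS libraries. By mean CPM it lay above 85.6% of all tested genes. Hoxd8 followed with 28.1 and 29.2 CPM per kb in control and 14.9 and 14.1 CPM per kb in c-FOS libraries. Hoxd9 had 26.2 and 24.9 CPM per kb in control and 16.8 and 17.8 CPM per kb in c-FOS libraries. The order of Hoxd8 and Hoxd9 thus differed between the groups: Hoxd8 was the higher of the pair in both control libraries and Hoxd9 in both c-FOS libraries. Hoxa7 came next, with 14.99 and 13.9 CPM per kb in control and 9.40 and 10.03 CPM per kb in c-FOS libraries. Hoxd10 had 11.7 and 12.7 CPM per kb in control and 7.58 and 8.40 CPM per kb in c-FOS libraries. This order is by the mean level over both groups. By that mean, and in each control library, paralogues 7 to 10 of HoxA, HoxB and HoxD held the first 5 places. In the c-FOS libraries Hoxc6 (9.82 and 9.83 CPM per kb) and Hoxb4 (8.60 and 8.83 CPM per kb) both lay above Hoxd10. In HoxC the highest level per kb was that of Hoxc13 in both control libraries and that of Hoxc6 in both c-FOS libraries.

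**Figure D1:**
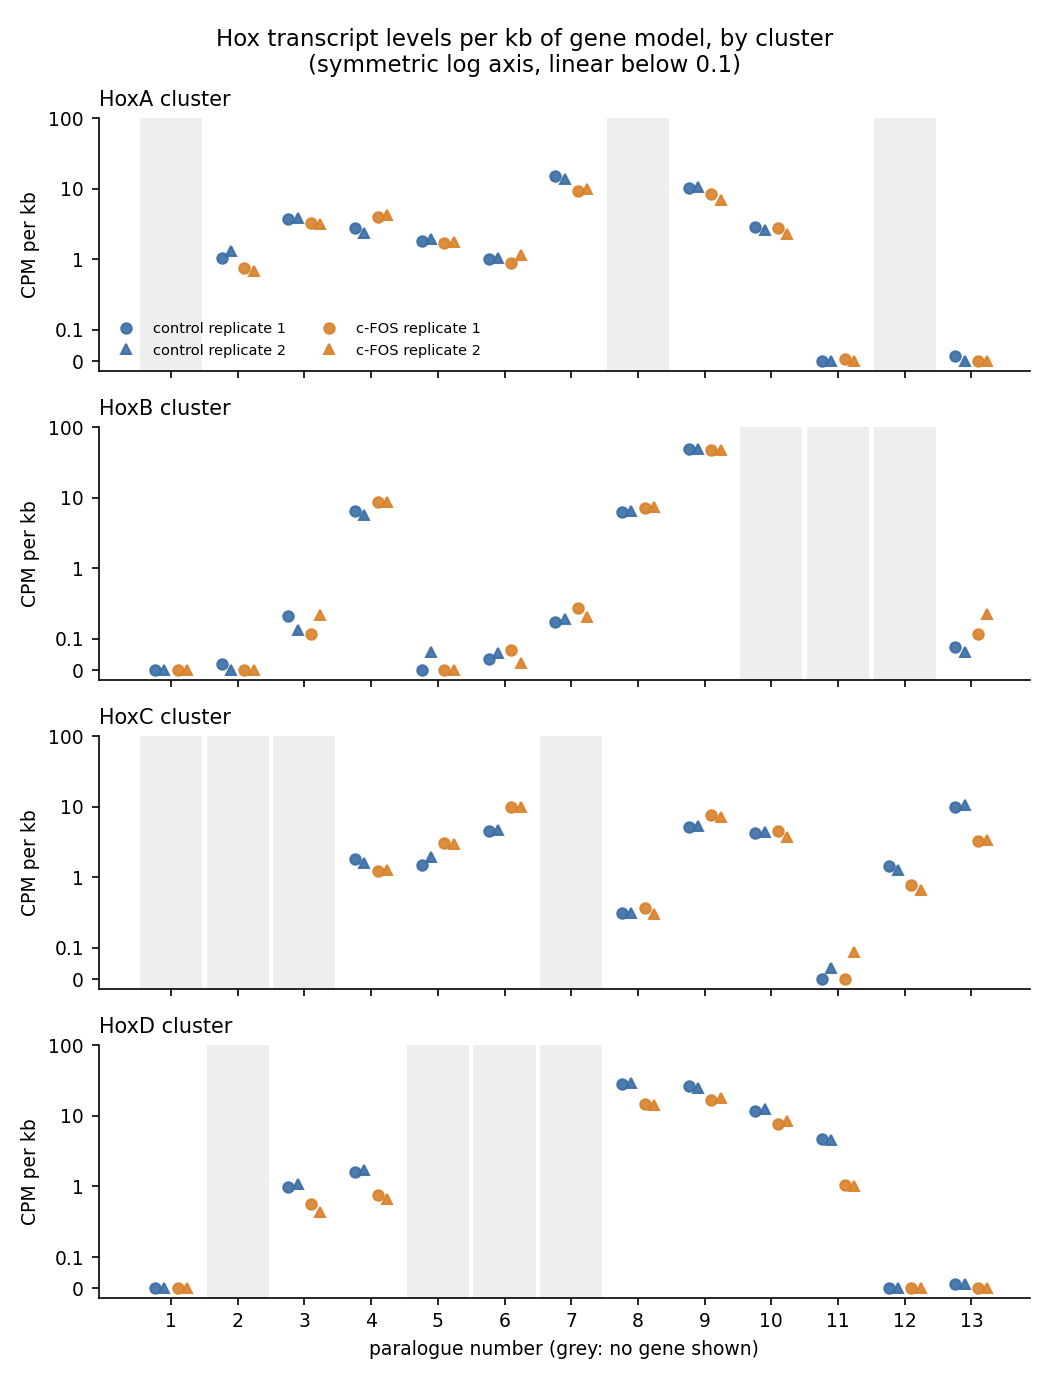
Level of protein-coding Hox genes in each library, as CPM per kb of gene model (symmetric log axis, linear below 0.1), by paralogue number in 4 panels for the clusters; blue symbols are control and orange symbols c-FOS libraries. Hoxb9 lies highest in all 4 libraries, and in the HoxD panel the orange symbols lie below the blue ones for all 6 tested genes.

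Summed per kb, the 39 protein-coding genes reached 207 and 206 CPM per kb in the control libraries and 171 and 170 CPM per kb in the c-FOS libraries. HoxD held the largest share of this sum in control cells, 35.4% and 35.9%, and HoxB the largest in c-FOS cells, 37.8% and 38.3%. HoxB had 30.5% and 29.7% in the control libraries, and HoxD had 24.4% and 24.9% in the c-FOS libraries. The share of HoxA was between 19.5% and 20.03% in the 4 libraries. HoxC went from 14.1% and 14.6% to 18.04% and 17.3%. A share also moves when the other clusters change. The HoxC sum itself overlapped between groups, with 29.2 and 30.2 CPM per kb in control and 30.8 and 29.3 in c-FOS libraries. The HoxB sum was 63.0 and 61.3 CPM per kb in control and 64.6 and 65.2 in c-FOS libraries. The HoxD sum was 73.3 and 74.1 CPM per kb in control and 41.7 and 42.4 in c-FOS libraries. In none of the 4 clusters did the 2 groups overlap in the share of the sum per kb. For HoxA the margin was narrow, with 20.03% and 19.74% in control and 19.71% and 19.53% in c-FOS libraries. The cluster with the largest share per kb was a different one in the 2 groups. This change of order depends on the scaling by length. Without it HoxB had the largest summed CPM in all 4 libraries, in control with 34.95% and 34.09% against 33.07% and 33.45% for HoxD.

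Of the 28 tested members, 6 rose, 12 fell and 10 did not pass with c-FOS. The 18 members called are 64.3% of those tested, which is near the 67.1% of all genes, so the number of Hox genes that changed did not stand apart. By direction, 42.9% of tested members fell against 33.3% of all genes, and 21.4% rose against 33.8%. A fall of at least 2-fold was called for 4 members, 14.3% against 7.71% of all genes, and a rise of at least 2-fold for 1 member, against 7.73%. The 2 groups did not overlap in CPM for 23 members, 82.1% against 83.6% of all genes. The median log2 fold change of the tested members was -0.22, and that of all tested genes was -0.01. Described by cluster, the tested HoxD genes all fell, HoxC held both the largest rise and a 3-fold fall, HoxA fell or did not pass with 1 exception, and HoxB rose or did not pass.

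**Figure D2:**
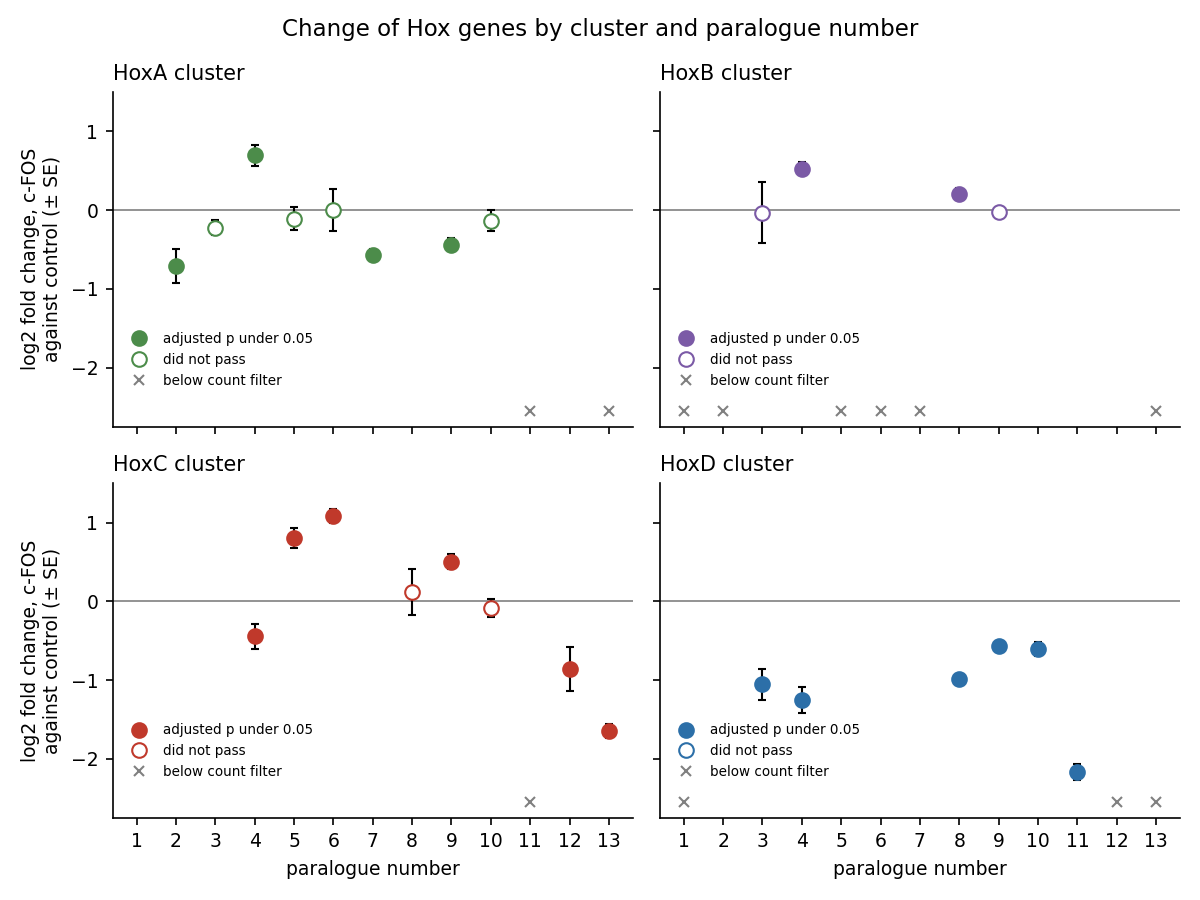
Log2 fold change of c-FOS against control for tested Hox genes by paralogue number, in 1 panel per cluster, with error bars of 1 SE, filled symbols for genes that passed the test, open symbols for those that did not and crosses for genes below the count filter. All 6 HoxD genes lie below 0, with Hoxd11 at -2.17, and Hoxc6 is the highest at 1.08.

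Every tested HoxD gene fell. These were 6 genes, where 33.3% of all genes fell, with a median log2 fold change of -1.02 and a range of -2.17 to -0.56. The HoxD cluster is best known for patterning the limbs and the trunk. Hoxd11, which with Hoxa11 shapes the forearm, was at 18.4 and 17.9 CPM in the control libraries and at 4.10 and 3.95 CPM in the c-FOS libraries. The c-FOS libraries lay far below both controls. This was the largest fall of any member, 4.50-fold (log2 fold change -2.17 ± 0.10 SE, edgeR adjusted p = 1.81e-10), and 1.83% of all tested genes had a lower value. Hoxd4, a gene active in the hindbrain and the neck vertebrae, was at 4.07 and 4.42 CPM in control and at 1.91 and 1.68 CPM in c-FOS libraries. The groups were apart, and the fall was 2.38-fold (log2 fold change -1.25 ± 0.17, edgeR adjusted p = 1.43e-05). Its neighbour Hoxd3 was at 2.89 and 3.11 CPM in control and at 1.64 and 1.26 CPM in c-FOS libraries, again without overlap (log2 fold change -1.05 ± 0.20, edgeR adjusted p = 0.000332).

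The 2 most abundant HoxD genes also fell. Hoxd8, a central gene, was at 57.4 and 59.6 CPM in control and at 30.4 and 28.8 CPM in c-FOS libraries. Both c-FOS values were close to each other and well below both controls, a 1.98-fold fall (log2 fold change -0.98 ± 0.06, edgeR adjusted p = 1.59e-09). Hoxd9, which acts with its paralogues in the spinal cord and hindlimb, was at 54.9 and 52.2 CPM in control and at 35.3 and 37.2 CPM in c-FOS libraries, again apart (log2 fold change -0.56 ± 0.05, edgeR adjusted p = 6e-07). Hoxd10, another gene of spinal cord and hindlimb, was at 21.7 and 23.4 CPM in control and at 14 and 15.5 CPM in c-FOS libraries (log2 fold change -0.61 ± 0.08, edgeR adjusted p = 1.85e-05). For these 3 genes too the groups did not overlap. At the ends of the cluster nothing was measurable: Hoxd1 and Hoxd12 had no count in any library, and Hoxd13, the digit gene, had 1 count in each control library and 0 in both c-FOS libraries. The antisense RNA Hoxd3os1 was at 0.353 and 0.814 CPM in control and at 0.305 and 0.307 CPM in c-FOS libraries and did not pass (log2 fold change -0.90 ± 0.45, edgeR adjusted p = 0.0914). Without control replicate 1 it passed with a log2 fold change of -1.35 (edgeR adjusted p = 0.0059; range over its alternatives 0.0059 to 0.777), and without control replicate 2 its log2 fold change was -0.19 (edgeR adjusted p = 0.777). In the RefSeq annotation the span of Hoxd3 overlaps those of Hoxd4 and Hoxd3os1, and that of Hoxd10 overlaps Hoxd11. Whether counting used strand was not given in the sources used here, and reads of these overlapping or antisense models cannot be told apart. Hoxd8 and Hoxd9, which overlap no other model, fell as well.

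The region before a Hoxd11 start is shown because Hoxd11 had the largest fall and because AP-1, the factor to which c-FOS belongs, binds the letters TGACTCA. The sequence is that of the 250 bases upstream, chr2:74679308-74679557 on the plus strand, from the RefSeq promoter table of GRCm38.p6, with the motif in capitals.
Hoxd11 upstream: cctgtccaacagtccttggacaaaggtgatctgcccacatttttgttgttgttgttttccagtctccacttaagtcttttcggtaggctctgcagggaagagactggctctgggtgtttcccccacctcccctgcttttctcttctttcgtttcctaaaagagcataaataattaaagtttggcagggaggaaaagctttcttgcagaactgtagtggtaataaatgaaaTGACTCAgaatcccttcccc
The motif begins 20 bases before this annotated start. Hoxd11 had 2 windows in the promoter table, and only 1 held the motif. The table matched 25 of the 43 member symbols with 27 windows, each of 250 bases before and 50 bases after a start. HoxC had 1 window, that of Hoxc4. Hoxa4, Hoxb9, Hoxc5, Hoxc6, Hoxc9, Hoxc12 and Hoxc13 had no window and could not be searched. The letters TGACTCA, or TGAGTCA as read on the other strand, were in 1 of these windows (3.70%), against 5.20% of all 32851 windows. The related letters TGACGTCA, the same on both strands, were in 0 of the 27 windows and in 1.79% of all windows. Both matches are descriptions of sequence, and binding was not measured.

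HoxC changed in both directions. The test called 3 of its 8 tested genes higher and 3 lower, and 2 did not pass (median log2 fold change 0.02). That is 37.5% in each direction, against 33.8% of all genes higher and 33.3% lower. The rises were in the paralogues 5, 6 and 9, and the falls were in 4, 12 and 13. Hoxc6, a gene of the thoracic region, was at 7.28 and 7.42 CPM in control and at 15.6 CPM in each of the c-FOS libraries. This 2.12-fold rise was the largest of any member (log2 fold change 1.08 ± 0.09, edgeR adjusted p = 1.13e-07). Its neighbour Hoxc5 was at 4.08 and 5.25 CPM in control and at 8.34 and 8.07 CPM in c-FOS libraries, without overlap (log2 fold change 0.80 ± 0.13, edgeR adjusted p = 8.4e-05). Hoxc9, which marks the thoracic part of the spinal cord, was at 8.84 and 9.13 CPM in control and at 13.2 and 12.3 CPM in c-FOS libraries, with both c-FOS values higher (log2 fold change 0.50 ± 0.09, edgeR adjusted p = 0.000278).

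Hoxc13 is the Hox gene most tied to skin appendages: it is active in the hair follicle and nail, controls hair keratin genes, and mice that lack it are hairless. It was at 24.5 and 25.8 CPM in the control libraries and at 7.94 and 8.10 CPM in the c-FOS libraries. The c-FOS libraries were low in both replicates, a 3.13-fold fall (log2 fold change -1.65 ± 0.08, edgeR adjusted p = 5.51e-10). Hoxc12, the neighbour of Hoxc13, was at 1.21 and 1.07 CPM in control and at 0.665 and 0.565 CPM in c-FOS libraries, which did not overlap (log2 fold change -0.86 ± 0.28, edgeR adjusted p = 0.0146). Hoxc4 also fell (log2 fold change -0.45 ± 0.16, edgeR adjusted p = 0.0251). Hoxc12 lost its call without control replicate 1, c-FOS replicate 1 or c-FOS replicate 2 (edgeR adjusted p = 0.052, 0.0557 and 0.14; range over its alternatives 0.00574 to 0.169). Hoxc4 lost its call without the same libraries (edgeR adjusted p = 0.101, 0.122 and 0.0903; range 0.00524 to 0.196). Hoxc10 (log2 fold change -0.08) and Hoxc8 (0.12) did not pass, and Hoxc11 had at most 2.5 counts in a library. In control cells Hoxc13 had 2.97 and 3.06 times the counts of Hoxc10, and in c-FOS cells 0.913 and 1.14 times.

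HoxA genes moved less. The test called 1 of 9 tested genes higher and 3 lower, and 5 did not pass (median log2 fold change -0.21). That is 11.1% higher against 33.8% of all genes, and 33.3% lower, the same as the 33.3% of all genes. None changed by 2-fold. Hoxa4 was the gene that rose, from 4.22 and 3.58 CPM in control to 6.07 and 6.55 CPM in c-FOS libraries (log2 fold change 0.70 ± 0.13, edgeR adjusted p = 0.000389). Hoxa7, the most abundant HoxA gene per kb, fell from 29.2 and 27.0 CPM in control to 18.3 and 19.5 CPM in c-FOS libraries (log2 fold change -0.57 ± 0.08, edgeR adjusted p = 1.3e-05). In both genes the groups did not overlap, in opposite directions. Hoxa9, known for its part in leukaemia and blood stem cells, fell by 0.44 on the log2 scale (edgeR adjusted p = 0.000335). Hoxa2, which patterns the hindbrain and the second branchial arch, fell by 0.71 ± 0.22 on the log2 scale (edgeR adjusted p = 0.0105). That call was lost without control replicate 2 or c-FOS replicate 2 (edgeR adjusted p = 0.0851 and 0.0837; range over its alternatives 0.0018 to 0.118). Among those that did not pass, the log2 fold changes were -0.22 for Hoxa3, -0.11 for Hoxa5, 0.00 for Hoxa6 and -0.13 for Hoxa10. The span of Hoxa3 overlaps Hoxa4, Hoxa5 and Hoxa6 in the RefSeq annotation. The tail-end genes Hoxa11 and Hoxa13 had at most 0.5 counts in a library.

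Of the 4 HoxB genes tested, 2 rose and 2 did not pass (median log2 fold change 0.08). That is 50% higher against 33.8% of all genes, and 0% lower against 33.3%. HoxB was led by Hoxb9, whose level did not pass the test: 134 and 131 CPM in control and 130 CPM in each c-FOS library (log2 fold change -0.03 ± 0.04, edgeR adjusted p = 0.515). Both c-FOS values lay just below the controls. Hoxb4, used to expand blood stem cells, rose from 16.6 and 14.5 CPM in control to 22.0 and 22.6 CPM in c-FOS libraries, without overlap (log2 fold change 0.53 ± 0.08, edgeR adjusted p = 7.41e-05). Hoxb8, a gene of myeloid progenitors and the dorsal spinal cord, was at 16.8 and 17.2 CPM in control and at 19.2 and 19.9 CPM in c-FOS libraries (log2 fold change 0.20 ± 0.08, edgeR adjusted p = 0.0326). This small rise lost its call without control replicate 1, c-FOS replicate 1 or c-FOS replicate 2 (edgeR adjusted p = 0.0632, 0.0877 and 0.185; range over its alternatives 0.0222 to 0.483). Hoxb3, whose span overlaps Hoxb4 in the RefSeq annotation, had a log2 fold change of -0.03 and did not pass. The other 6 HoxB genes were below the filter, each with at most 9.5 counts in a library. Hoxb5 had 3.5 counts in control replicate 2 and 0 in the other libraries, where a count of 0 allows up to about 0.1 CPM (3 counts). Hoxb13, the tail-end gene also known from prostate, had 3.0 and 2.5 counts in control and 4.5 and 9.5 in c-FOS libraries. The antisense RNAs Hoxa11os, Hoxb3os and Hoxb5os had no count in any library.

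Read by paralogue number, the anterior group (1 to 3) had 5 tested protein-coding genes, of which 2 fell and 3 did not pass. The central group (4 to 8) had 12, of which 5 rose, 4 fell and 3 did not pass (median log2 fold change 0.06). The posterior group (9 to 13) had 10, of which 1 rose, 6 fell and 3 did not pass, and the median was -0.50. The share that fell was 40% in the anterior, 33.3% in the central and 60% in the posterior group, against 33.3% of all genes. The share that rose was 0%, 41.7% and 10% in the same order, against 33.8% of all genes. These groups are mixed with cluster, since all 6 tested HoxD genes fell. Hoxd3 is among the anterior falls, Hoxd4 and Hoxd8 among the central ones and Hoxd9, Hoxd10 and Hoxd11 among the posterior ones. Hoxa2, the other anterior fall, lost its call with DESeq2 (adjusted p = 0.118). Paralogues 11 to 13 had 3 tested genes, Hoxd11, Hoxc12 and Hoxc13, and all 3 fell, though Hoxc12 lost its call with DESeq2 (adjusted p = 0.169). Genes of the same number moved apart between clusters. All 4 paralogues of number 4 passed the test, where 67.1% of all genes did. Hoxa4 and Hoxb4 were higher and Hoxc4 and Hoxd4 lower, and Hoxc4 lost its call with DESeq2 (adjusted p = 0.196). Within each library the ratio of Hoxa4 to Hoxd4 counts does not depend on scaling between libraries, and it was 1.04 and 0.809 in control and 3.19 and 3.90 in c-FOS libraries. The ratio of Hoxb4 to Hoxd4 was 4.07 and 3.27 against 11.6 and 13.5. Among paralogues of number 8, Hoxb8 to Hoxd8 was 0.292 and 0.289 against 0.631 and 0.689. Among those of number 9, Hoxc9 to Hoxd9 was 0.161 and 0.175 against 0.374 and 0.330. In each of these 4 ratios both c-FOS libraries lay above both controls. Each pair sets a member called higher over a member called lower, so this follows from the calls and adds no separate support. The exact permutation test over 2 against 2 libraries cannot give a two-sided p below 0.333, and it gave 0.333 for each of the 19 ratios computed, also after adjustment.

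**Figure D3:**
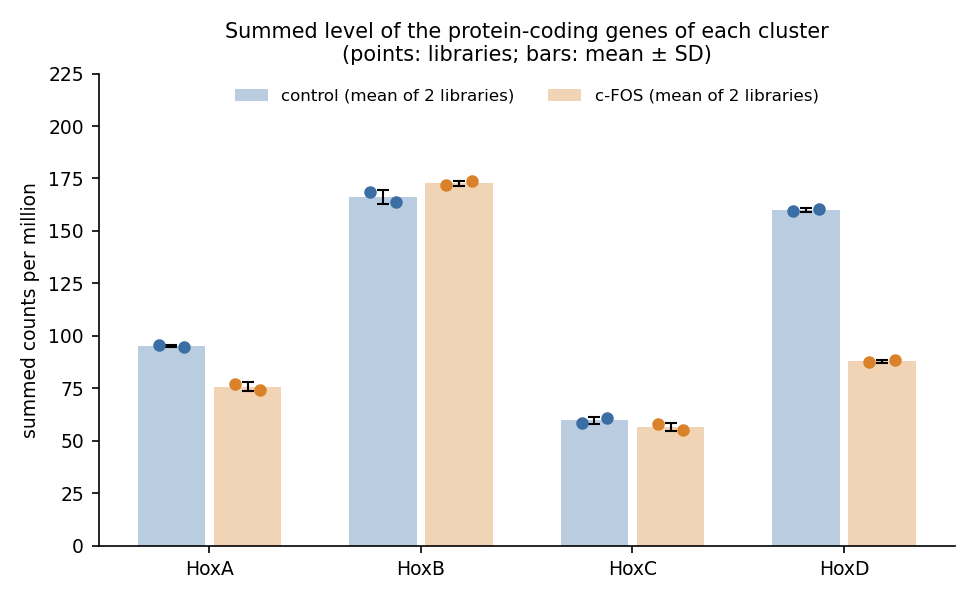
Summed CPM of the protein-coding genes of each cluster, with bars for the mean of 2 libraries, error bars of 1 SD and points for the libraries. HoxD lies near 160 CPM in both control libraries and near 88 CPM in both c-FOS libraries; bars should be compared within a cluster, since gene lengths differ.

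Of the summed counts of whole clusters, those of HoxD differed most. HoxD summed to 159 and 161 CPM in control and to 87.3 and 88.4 CPM in c-FOS libraries, a log2 difference of -0.86. HoxA summed to 95.6 and 94.9 CPM against 77.3 and 74.2 CPM (-0.33). HoxB summed to 168 and 164 CPM against 172 and 174 CPM (0.06), and HoxC to 58.5 and 61.02 CPM against 57.8 and 55.0 CPM (-0.08). None of the 4 clusters had overlapping groups, and the exact permutation p was 0.333 for each, the smallest that 2 against 2 libraries can give. The HoxB value turned to -0.08 when libraries were scaled by their totals, and HoxC turned to 0.48 without Hoxc13, so the direction of those clusters is not firm. Without Hoxb9 HoxB was at 0.36, and without Hoxd9 HoxD was at -1.04. The ratio of HoxD to HoxB within a library was 0.946 and 0.981 in control and 0.508 and 0.509 in c-FOS libraries. The ratio of HoxD to HoxC was 2.72 and 2.63 against 1.51 and 1.61. In both ratios the c-FOS libraries lay below the controls by more than the spread within either group.

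The protein-coding genes beside each cluster, 4 on either side in RefSeq order, were read in the same way. The test called 5 of the 7 tested genes beside HoxD lower and 1 higher (median log2 fold change -0.24). That is 71.4% lower against 33.3% of all genes, and 14.3% higher against 33.8%. The range was -0.72 for Hnrnpa3, an RNA-binding protein gene, to 0.23 for Atf2, a bZIP factor gene. None of these 7 neighbours fell by 2-fold, while 3 of the 6 HoxD genes did. Among all genes 7.71% fell that far, a share so low that 7 genes can easily hold none. Beside HoxA 1 of 7 tested genes rose and 3 fell (median -0.07), beside HoxB 4 of 6 rose and 2 fell (median 0.12), and beside HoxC 2 of 6 rose and 1 fell (median -0.04). In the order HoxA, HoxB and HoxC, 42.9%, 33.3% and 16.7% of these neighbours fell, against 33.3% of all genes. In the same order 14.3%, 66.7% and 33.3% rose, against 33.8%. Skap1, the neighbour of HoxB with the highest fitted value, had 2.0 counts in each control library and 19.5 and 22.5 counts in the c-FOS libraries. Over all 4 clusters 19 of 26 tested neighbours were called, 73.1% against 67.1% of all genes. Evx1 and Evx2, the homeobox genes next to the 13 ends of HoxA and HoxD, had no count in any library.

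**Figure D4:**
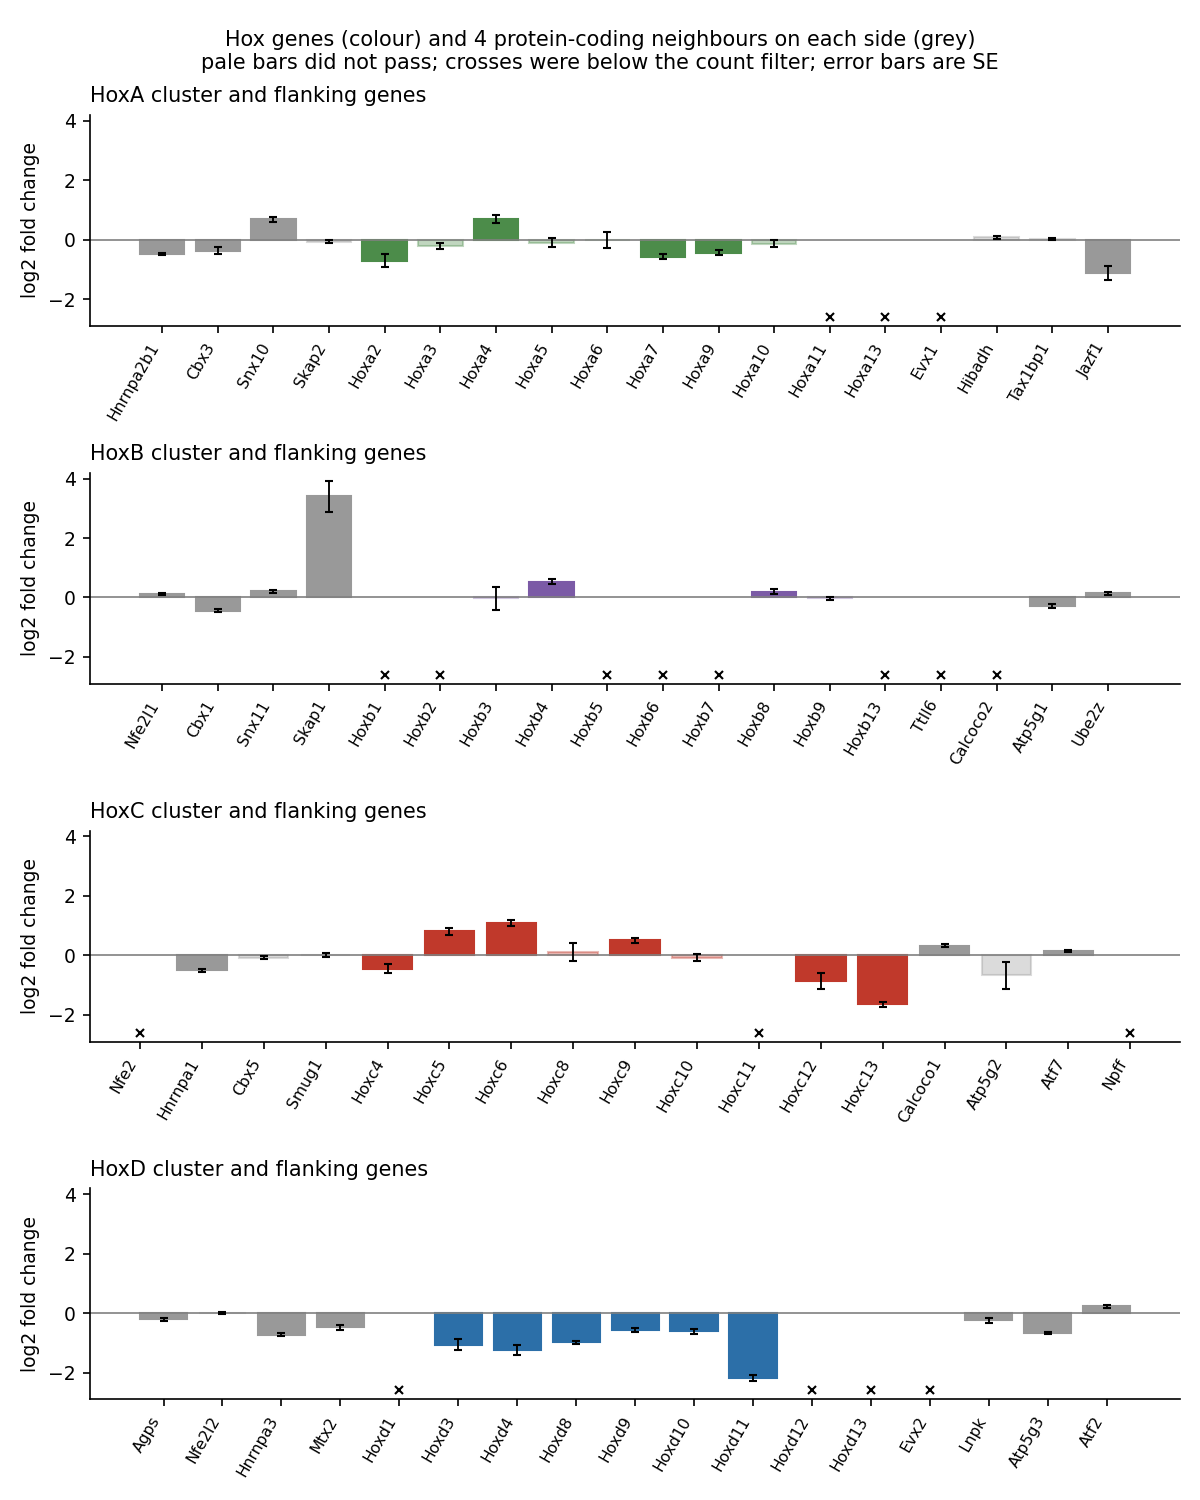
Log2 fold change of c-FOS against control for genes of each Hox cluster (coloured bars) and the protein-coding genes on either side of it (grey bars), in chromosome order, with error bars of 1 SE, pale bars for genes that did not pass and crosses for genes below the count filter. The HoxD genes lie between -2.17 and -0.56, and the 7 genes beside HoxD lie between -0.72 and 0.23.

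The clusters also encode microRNAs, of which miR-196 is known to act on Hox messages. The mature sequences are printed from the RefSeq table with the seed (bases 2 to 8) in capitals, because the seed is the stretch that pairs with target messages.
miR-196a-5p: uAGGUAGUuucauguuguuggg
miR-196b-5p: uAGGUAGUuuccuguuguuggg
miR-10a-5p: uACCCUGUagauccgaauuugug
miR-10b-5p: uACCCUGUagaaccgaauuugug
The 2 miR-196 forms share a seed, as do the 2 miR-10 forms. Mature microRNAs were not measured by these libraries. The Mir196a-1 row, a hairpin model of 101 bases in the HoxB cluster, had 90.0 and 98.5 counts in control and 48.5 and 62.5 counts in c-FOS libraries and fell (log2 fold change -0.70 ± 0.18, edgeR adjusted p = 0.00308). The rows of Mir196a-2, Mir196b, Mir10a, Mir10b and Mir615 had at most 0.5 counts in a library. The complement of the miR-196 seed, ACTACCT, was found in the 3′ UTR of 9 of 39 Hox genes (23.1%) against 7.80% of 21011 genes with an annotated 3′ UTR. Among them Hoxa4 rose, Hoxa7 and Hoxa9 fell, Hoxa5 and Hoxc8 did not pass, and Hoxb1, Hoxb6 and Hoxb7 were below the filter. The longest pairing was in Hoxb8, the textbook target of miR-196, and is shown for that reason with the bases opposite the seed in capitals.
Hoxb8 site: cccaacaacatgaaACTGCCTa
It was complementary to miR-196a-5p at 21 of 22 bases, with the substitution A18G counted from the 5′ end of the site (the full complement has the first base and the site the last). The next longest, in Hoxd8, paired at 15 of 22 bases. Hoxb8 rose and Hoxd8 fell, as given above.

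Partners and regulators of Hox proteins were read as lists. Of the 9 TALE cofactor genes, 7 were tested: 4 fell, 1 rose and 2 did not pass, and the median log2 fold change was -0.22. The share called, 71.4%, is near the 67.1% of all genes. Meis1, a DNA-binding partner of posterior Hox proteins, fell from 38.4 and 34.9 CPM to 23.6 and 22.8 CPM (log2 fold change -0.66 ± 0.07, edgeR adjusted p = 1.33e-06). Pknox1 fell by 0.51 and Pbx2 by 0.38 on the log2 scale. Pbx4 rose (log2 fold change 0.70), a call lost without c-FOS replicate 2 (log2 fold change 0.58, edgeR adjusted p = 0.0648). Of the 9 ParaHox and cluster-linked homeobox genes none was tested, and 7 had no count, the caudal genes Cdx1, Cdx2 and Cdx4 among them.

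Of the 18 retinoic acid pathway genes, 11 were tested, 5 rose and 6 fell (median log2 fold change -0.23). All 11 were thus called, against 67.1% of all genes, with 45.5% higher against 33.8% and 54.5% lower against 33.3%. The receptor gene Rxra fell from 171 and 166 CPM to 59.4 and 62.3 CPM, or by 1.47 on the log2 scale (edgeR adjusted p = 1.68e-12). Stra6, the retinol uptake receptor, fell by 2.01, and Rdh10, which makes retinal, rose with a log2 fold change of 0.92. The number that rose was 3 when c-FOS replicate 1 was left out, and 3 when c-FOS replicate 2 was.

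All 20 Trithorax and insulator genes could be tested. The test called 15 lower and 2 higher (median log2 fold change -0.23). This is 85% called against 67.1% of all genes, and 75% lower against 33.3%. The number called lower was 13 with DESeq2 and 18 with library totals. The falls were small. The largest were in the cohesin gene Rad21 (-0.56), the methyltransferase subunit gene Dpy30 (-0.55), the insulator gene Ctcf (-0.54) and the methyltransferase gene Dot1l (-0.49), between 1.41-fold and 1.47-fold. The 2 that rose were the methyltransferase gene Kmt2a (0.15) and Mllt3 (0.17), a gene of the elongation complexes. The number that rose was 1 when control replicate 1, c-FOS replicate 1 or c-FOS replicate 2 was left out. Of the 16 noncoding RNAs of the clusters with a row, 4 were tested and 2 fell (50% against 33.3% of all genes), Mir196a-1 and Hotairm1 (log2 fold change -0.39, edgeR adjusted p = 0.007). With DESeq2 neither passed (adjusted p = 0.0529 and 0.0854). Hotairm1 also lost its call without c-FOS replicate 1 (log2 fold change -0.33, edgeR adjusted p = 0.0686). Hotair had 1 count in each control library and 0 in the c-FOS libraries.

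Positional genes outside the Hox clusters, 40 homeobox and T-box genes of limb, face and trunk, changed as well. The test called 17 of the 27 tested lower and 6 higher (median log2 fold change -0.37). Dlx3, a gene of hair follicle and suprabasal epidermis, was at 44.0 and 40.8 CPM in control and at 6.56 and 6.67 CPM in c-FOS libraries, a 6.39-fold fall (log2 fold change -2.68 ± 0.08, edgeR adjusted p = 2.75e-12). Barx2, active in the hair follicle and in muscle, fell from 186 and 172 CPM to 60.1 and 61.8 CPM. Zic1 fell from 11 and 17 counts to 2.0 and 2.5 counts. Prrx2, a mesenchymal homeobox gene, rose from 2.0 and 1.0 counts to 82.5 and 98.0 counts. The share called, 85.2%, is above the 67.1% of all genes, with 63.0% lower against 33.3%. With DESeq2 13 were called lower and 5 higher. The list was chosen with earlier results of these data known.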

How the data were processed

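The values the authors deposited are expected counts per gene symbol and library, not normalized, in steps of 0.5 (48.0% of values above 0 are not whole, the origin of the steps was not given in the sources used here). Per the submitters' processing notes, the tools and build were TopHat, HOMER, DESeq2 and mm9, without versions. The counts were rounded to whole numbers (0.5 upwards) and tested with edgeR 4.0.16 in R 4.3.3: TMM factors, the filterByExpr filter with groups given (count of at least 10, total of at least 15), quasi-likelihood test, two-sided, Benjamini-Hochberg adjustment over 12791 genes at 0.05, all 4 libraries, no covariate. CPM are deposited counts over effective library size, SE of log2 fold changes come from the F statistic, and the script was tested on simulated data. Of 2 duplicated symbols the row with more counts was used. Within each group the libraries differed beyond sampling noise (chi-square per degree of freedom 5.00 in control and 1.98 in c-FOS).

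The Hox genes and all lists were chosen with earlier results of these data known. Tested members are named with their change, and some single-gene results are not reported here. Values in every library are given for the 6 largest rises, the 6 largest falls and the 5 highest mean levels per kb. Up to 4 genes are named per companion list by the size of their change. The Cdx and Evx genes, Hotair, Kmt2a and Mllt3 were named after their values were seen. Neighbours of the clusters and microRNA pairings were also chosen after results were known. Gene order, overlaps, promoters and microRNAs come from RefSeq GRCm38.p6 and 3′ UTRs from GENCODE M21. These are not the build of the counts, and no coordinates of the counts are given. The alternatives were other scalings (RLE, library totals, upper quartile), DESeq2 1.42.0, no filter, a minimum count of 50, counts ending in 0.5 rounded down, a replicate block, leaving out each library, and cluster sums without the most abundant gene.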

Additional observations from a re-analysis of the deposited data

How the results depend on the processing

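Of the 18 Hox genes called, 14 kept their call and direction in all of the 12 alternatives run. The 4 that did not are Hoxa2, Hoxb8, Hoxc4 and Hoxc12, and each also lost its call with DESeq2 (adjusted p = 0.118, 0.146, 0.196 and 0.169). Hoxb8 lost it too with library totals (log2 fold change 0.06) and upper-quartile factors (0.14). Under library totals, and under upper-quartile factors, Hoxa3 and Hoxb9 became called lower, Hoxb9 with log2 fold changes of -0.17 and -0.09, and Hoxa3 also with a minimum count of 50. Library totals move the median log2 fold change of all tested genes from -0.01 to -0.14. HoxA genes called lower went from 3 to 5 with totals and with upper-quartile factors, HoxC genes called lower from 3 to 1 with DESeq2 or without control replicate 1, c-FOS replicate 1 or c-FOS replicate 2, and HoxB genes called higher from 2 to 1 with totals, upper-quartile factors, DESeq2 or without those libraries. The log2 differences of the summed clusters with library totals were -0.47 (HoxA), -0.080 (HoxB, reversed), -0.22 (HoxC), -1.0016 (HoxD) and -0.43 (all clusters). With upper-quartile factors they were -0.39, -0.0049 (reversed), -0.15, -0.927 and -0.35. Without the most abundant gene of each cluster they were -0.28, 0.36, 0.48 (reversed) and -1.04. Among the lists, retinoic acid genes that rose went from 5 to 2 with DESeq2 and to 3 with a minimum count of 50, Trithorax genes that rose from 2 to 0 with totals and to 1 with upper-quartile factors, TALE genes that rose from 1 to 0 and noncoding RNAs that fell from 2 to 0 with DESeq2. The cause of these changes was not tested. Deviations from the group mean in control replicate 1 and c-FOS replicate 1 had a correlation of -0.07 across genes. With 2 libraries per group the other pair mirrors this one, so the value cannot tell whether replicates were matched. With the replicate block 6 Hox genes rose and 12 fell, and 4246 of all genes rose and 4218 fell. Depth limits the 15 members below the filter, where 3 counts correspond to between 0.0958 and 0.108 CPM.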
